A study of Mus musculus with 26 samples.

Results

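The RNAs of the D and E cyclins, of 4 inhibitors of cyclin-dependent kinases and of the kinase Cdk6 were measured as they decayed in mouse oligodendrocyte progenitor cells (OPCs) and in oligodendrocytes (OLs), the cells that make myelin. The 10 genes were taken by symbol as a functional group, with no threshold on a measured value: Ccnd1, Ccnd2, Ccnd3, Ccne1, Ccne2, Cdkn1a, Cdkn1b, Cdkn1c, Cdkn2c and Cdk6. All 10 were found among the 10104 transcripts listed for either cell type, 1 canonical coding transcript each. Of these, 9 were listed for OPCs, 8 for OLs and 7 for both. Ccne1 and Cdk6 were listed for OPCs only and Cdkn1c for OLs only. A transcript was listed only from 1 FPKM upward at the start of the chase, so the level of these 3 genes in the other cell type is not known here.

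All cells were of the 129S/SvEv strain, and the OPCs had been derived from epiblast stem cells of male embryos and grown with bFGF and PDGFA. By the study's methods, OPCs to be differentiated first went through 2 passages without bFGF. The OLs were such OPCs taken into medium with thyroid hormone (T3), noggin, IGF-1, cyclic AMP and NT3 for 40 h before labelling. By the study's account some cells in such a culture remain undifferentiated. Both cell types were labelled for 24 h with 5-ethynyluridine, an analogue of uridine to which biotin can be coupled. The analogue was then replaced by uridine, and labelled RNA was pulled down and sequenced after 0, 1, 2, 4 and 6 h, in 3 biological replicates of OPCs (15 libraries) and 2 of OLs (10 libraries). By the study's account the OLs match a pair of the OPC replicates, which the numbers in the labels do not identify. Values of an OPC control without biotin were not analysed here, and no pull-down background was subtracted.

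D cyclins (Ccnd1, Ccnd2, Ccnd3) are made in response to growth factors and activate the kinases Cdk4 and Cdk6, which phosphorylate the retinoblastoma protein and its relatives late in the G1 phase. E cyclins (Ccne1, Ccne2) then activate Cdk2 for entry into S phase. Cdkn1a (p21), Cdkn1b (p27) and Cdkn1c (p57) belong to the Cip/Kip family, which binds cyclin-kinase complexes, whereas Cdkn2c (p18) belongs to the INK4 family, which binds Cdk4 and Cdk6 themselves. OPCs divide in the presence of PDGFA and leave the cell cycle when they differentiate, and p27 and p21 have long been studied in that exit.

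The 3′ untranslated regions (3′ UTRs) of these transcripts were searched for ATTTA, the core letters of AU-rich elements, on the sense strand only and counting overlapping matches. Sequences and positions are from GENCODE M21 (GRCm38, the build of the deposited files). Of 9944 listed transcripts with a 3′ UTR of at least 30 bases, 70.2% held 1 match or more, and 2.13% held 3 or more within a window of 30 bases. Among the members, 9 held at least 1 match and only Ccne2 held a window with 3. The windows below are shown for Ccne2 and Cdkn1c, whose matches lie closest together, and for Cdkn1a, whose decline differed most between the cell types. Capitals mark ATTTA, with 3 matches in the Ccne2 run that overlap by 1 base each.
Ccne2, chr4:11204115-11204144, forward strand: ctcctagaaATTTATTTATTTAaacttgct
Cdkn1c, chr7:143458637-143458666, reverse strand: atgctaATTTAatatttgtATTTAtccatg
Cdkn1a, chr17:29099487-29099516, forward strand: tatttgtgttttaATTTAaacgtctcctgt
Each window lies in the 3′ UTR and within 1 exon.

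The members differed widely in this feature. Ccne2 held 7 matches in a 3′ UTR of 1681 bases, against a median of 3 in 1525 listed transcripts of like length (0.8 to 1.2 times its own), of which 9.44% held as many. Ccnd2 had the longest 3′ UTR of the 10 genes, 5173 bases, with 2 matches, where the median of 491 transcripts of like length was 9 and 97.8% held as many or more. Ccne1 held 0 in 531 bases, and 53.8% of transcripts of like length held any. Cdkn1a held 3 in 1329 bases and Cdkn1b 4 in 1280 bases, each against a median of 2. A match is only a match of letters, and its absence says only that these letters are not in the annotated region.

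The share of UUU among phenylalanine codons set the E cyclin Ccne2 and the kinase Cdk6 apart from the other members. UUU made up 82.4% of the 17 phenylalanine codons of Ccne2 and 75% of the 16 of Cdk6, above 97.3% and 93.5% of listed transcripts. In Ccnd1, Ccnd2, Cdkn1a, Cdkn1b, Cdkn1c and Cdkn2c the share of UUU ran from 0% to 28.6%, under the median of 44.4%, with 4 to 10 phenylalanine codons in each. AAA among lysine codons was ordered otherwise, at 60% of only 5 codons in Cdkn2c, 51.5% in Ccne2, 42.9% in Cdkn1a, 42.3% in Ccne1 and 38.9% in Cdk6, and 10% to 18.2% in the other 5 genes, against a median of 37.5%. The share of codons ending in G or C was 80.3% in Ccnd1, 79.1% in Cdkn1c and 75.3% in Ccnd3, above 97.0%, 96.3% and 92.1% of transcripts, and 38.7% in Ccne2, above 4.70%. No relation between these features and the values below was tested over so few genes.

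Values at 0 h are FPKM (fragments per kilobase of transcript, relative to the mapped reads of the library) of the labelled RNA, and so can be compared between genes. Later values had been scaled by the authors to labelled spike-in RNA, relative to the replicate's own 0 h. Library depth cannot be read from these values, so no counting error is given. By the medians over all transcripts, at 1 h OPC replicates 1 to 3 kept 67.9%, 95.3% and 75.4% of their 0 h level, while the OL replicates kept 64.0% and 95.5%. At 6 h the medians were 10.98% to 17.7% in OPCs and 31.5% to 36.6% in OLs. A factor shared by a library moves all its transcripts alike, so member values are also given against these medians or as ratios within a library. Of the OL markers, 9 of 9 were listed for OLs with a summed 0 h level of 2979 to 6432 FPKM, and 3 of 9 for OPCs with 39.2 to 57.5 FPKM. OPC markers summed to 566 to 680 FPKM in OPCs and 498 to 552 FPKM in OLs, with Pdgfra, a defining progenitor marker, higher in OLs (log2 change 1.70 ± 0.37, SE, adjusted p 0.0120). None of the 5 microglial or 4 pluripotency markers was listed for either cell type. Of the 5 astrocyte markers 2 were listed for OPCs (summed level 202 to 249 FPKM) and 4 for OLs (181 to 261 FPKM), and Aqp4 for neither. Of the 5 neuronal markers 1 was listed for OPCs (13.2 to 17.4 FPKM) and 2 for OLs (25.9 to 27.7 FPKM).

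The first comparison was of labelled RNA at 0 h, which holds what was made over the 24 h of labelling and still present. Ccnd1 and Ccnd2, the main D cyclins of the progenitors, were lower in OLs, with changes of -2.49 and -3.62 on the log2(FPKM + 1) scale, and Cdkn2c was lower with -1.29. The third D cyclin and the Cip/Kip inhibitors Cdkn1a and Cdkn1b did not pass the test. Thus 3 of the 7 members listed for both cell types were lower in OLs and 0 were higher at an adjusted p under 0.05 (limma), where 15.8% and 13.8% of the 8177 transcripts tested were lower and higher. The median difference was -0.88 over the 7 members and -0.01 over all transcripts. In cultures such as these, fewer cells of a type and less RNA per cell cannot be told apart.

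Ccnd1 (chromosome 7, 144929931 to 144939869, reverse strand, 5 exons) stood at 200, 124 and 164 FPKM in OPC replicates 1 to 3 and at 31.3 and 24.3 FPKM in the OL replicates. The lowest OPC value was well above the highest OL value, and the change was -2.49 ± 0.27 (SE, adjusted p 0.00055). Ccnd2 (chromosome 6, 127125162 to 127151060, reverse strand, 5 exons) stood at 157, 214 and 172 FPKM in OPCs and at 10.1 and 18.6 FPKM in OLs. Its change of -3.62 ± 0.29 (adjusted p 0.000237) was the largest among the members, and the groups again lay apart. Ccnd3 (chromosome 17, 47505128 to 47599691, forward strand, 7 exons) stood at 112, 60.1 and 72.1 FPKM in OPCs and at 64.5 and 56.6 FPKM in OLs. These ranges overlapped, with a change of -0.38 ± 0.29 (adjusted p 0.359). With 1 OPC replicate left out the change of Ccnd3 ran from -0.57 to -0.12, never past the threshold.

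Ccne1 stood at 32.5, 30.5 and 31.7 FPKM in the 3 OPC replicates, the tightest of the members. Ccne2 varied more within OPCs, at 13.2, 33.4 and 22.2 FPKM, and stood at 14.8 and 8.46 FPKM in OLs. The ranges overlapped and the change of -0.88 ± 0.39 did not pass (adjusted p 0.124), although without OPC replicate 1 it was -1.21 (adjusted p 0.0177). Without OPC replicate 2 the change was -0.57 (adjusted p 0.241), and without OL replicates 1 and 2 in turn it was -1.25 and -0.51. Cdk6, a partner of the D cyclins, was near the lower limit of the table in OPCs, at 1.01, 2.38 and 1.48 FPKM.

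Cdkn1a was among the most abundant members in both cell types before the chase. It stood at 199, 102 and 148 FPKM in OPCs and at 172 and 186 FPKM in OLs, within the OPC range, with a change of 0.31 ± 0.30 (adjusted p 0.456). Cdkn1b stood at 42.3, 70.3 and 51.5 FPKM in OPCs and at 66.4 and 69.1 FPKM in OLs, also within the OPC range (0.33 ± 0.26, adjusted p 0.358). With 1 OPC replicate left out the change ran from 0.06 to 0.54 for Cdkn1a and from 0.17 to 0.53 for Cdkn1b, never past the threshold. Cdkn2c, the INK4 member, stood at 55.8, 63.9 and 51.5 FPKM in OPCs and at 27.2 and 18.8 FPKM in OLs, with no overlap (-1.29 ± 0.24, adjusted p 0.00686). That call was lost without OL replicate 2 (-1.04, adjusted p 0.0586). Cdkn1c was low and uneven in OLs, at 14.2 and 3.98 FPKM.

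By mean 0 h level the order in OPCs was Ccnd2, Ccnd1, Cdkn1a, Ccnd3, Cdkn2c, Cdkn1b, Ccne1, Ccne2 and Cdk6, from 181 down to 1.62 FPKM. Ranges of replicates overlapped between each pair of neighbours from Ccnd2 down to Cdkn1b and between Ccne1 and Ccne2, while Cdkn1b and Ccne1, and Ccne2 and Cdk6, did not overlap. In OLs the order was Cdkn1a, Cdkn1b, Ccnd3, Ccnd1, Cdkn2c, Ccnd2, Ccne2 and Cdkn1c, from 179 down to 9.07 FPKM. There Cdkn1a lay apart from Cdkn1b, Cdkn1b from Ccnd3 and Ccnd3 from Ccnd1, and all later neighbours but Cdkn2c and Ccnd2 overlapped. Markers of dividing cells moved with Ccnd1 and Ccnd2, while Ccnd3 did not pass the test. Mcm2, Pcna and Ccnb1, 3 of the 5, were lower in OLs past the threshold, beside 15.8% of all transcripts, and the 5 together summed to 413 to 508 FPKM in OPCs and 73.3 to 156 FPKM in OLs. Their part in the result was not tested.

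**Figure D1:**
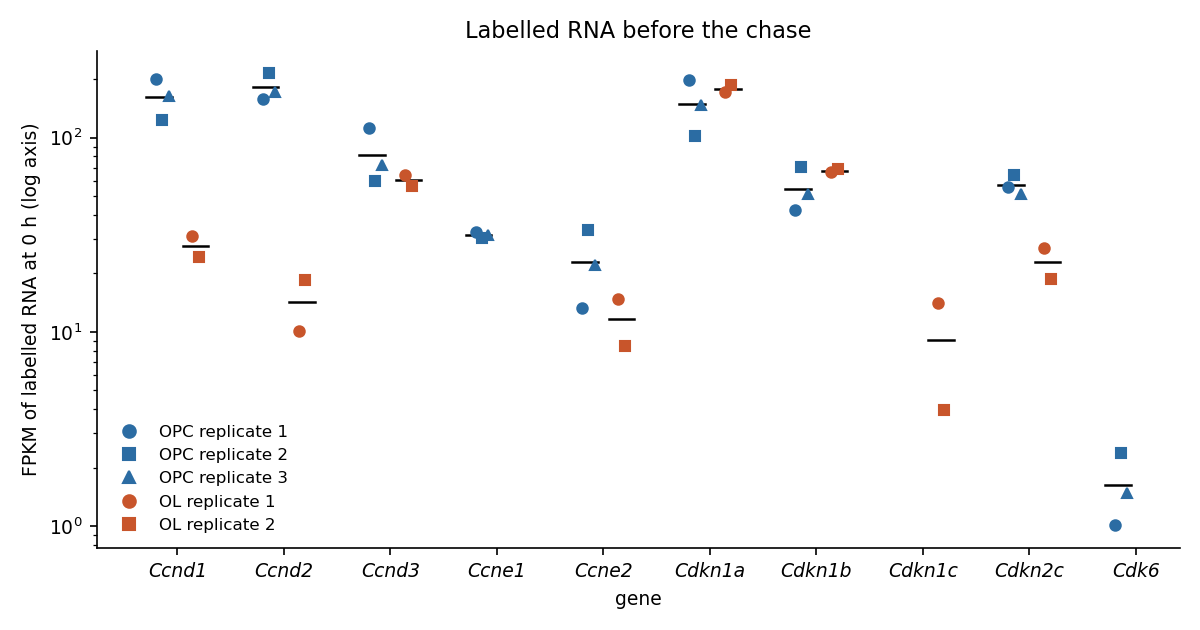
FPKM of labelled RNA at 0 h (vertical log axis) for the 10 genes; each symbol is 1 replicate of OPCs (blue) or OLs (orange) and black bars are means. Ccnd1, Ccnd2 and Cdkn2c of OLs lie below all OPC replicates, while Cdkn1a lies between 102 and 199 FPKM in all 5.

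Ratios within a library, which a factor shared by its transcripts does not change, show the makeup of the D cyclins. Ccnd2 made up 33.5%, 53.8% and 42.2% of summed D cyclin FPKM in OPC replicates 1 to 3 at 0 h, and 9.52% and 18.7% in OLs. Ccnd3 made up 23.9%, 15.1% and 17.7% in OPCs and 60.9% and 56.9% in OLs. The largest D cyclin share was thus Ccnd3 in both OL replicates, and Ccnd1 or Ccnd2 in each OPC replicate. The ratio of Cdkn1a to summed D cyclins was 0.423, 0.255 and 0.362 in OPCs and 1.62 and 1.87 in OLs. These shares are descriptions and were not tested.

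During the chase Cdkn1a parted between the cell types while other members mostly fell in both. The question here is how fast each labelled RNA declined after the analogue had been replaced by uridine. In each later library 3.99% to 41.4% of transcripts lay above their own 0 h level. In OPCs, Cdkn1a fell from 199 to 93.5, 70.8, 27.3 and 11.7 FPKM at 1, 2, 4 and 6 h in replicate 1. It fell from 102 to 98.7, 71.3, 9.58 and 3.09 FPKM in replicate 2, and from 148 to 76.0, 67.6, 13.7 and 12.04 FPKM in replicate 3. By 4 h all 3 OPC replicates were at 9.26% to 13.7% of their own 0 h level.

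In OLs, Cdkn1a went from 172 to 127, 156, 157 and 82.5 FPKM in replicate 1 and from 186 to 189, 142, 168 and 131 FPKM in replicate 2. Both OL replicates were still at 90.3% and 91.5% at 4 h. At 6 h the mean of Cdkn1a was 5.69% ± 2.56 (SD, n = 3) over the OPC replicates, against 59.2% ± 15.8 (SD, n = 2) over the OL replicates. Against the median transcript of the same library, Cdkn1a at 6 h was 0.277 to 0.461 times as high in OPCs and 1.53 and 1.92 times in OLs. With libraries centred on their medians its slope was -0.27 (adjusted p 5.1e-05) in OPCs and 0.13 (adjusted p 0.0057) in OLs.

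The slope of log2(FPKM + 1) per hour tests this without a ceiling. Each fit takes a single slope per cell type, so its SE and p reflect the scatter of libraries around that line. They do not measure how slopes vary between replicates. For Cdkn1a it was -0.71 ± 0.06 (SE, adjusted p 3.29e-08) in OPCs and -0.10 ± 0.05 (adjusted p 0.0562) in OLs. The difference of slopes was 0.61 ± 0.08 (adjusted p 5.36e-05), and it passed under all 11 alternatives tried, from 0.40 to 0.75. With each library centred on its median it was 0.40 (adjusted p 0.000147), and without the 6 h libraries 0.75 (adjusted p 0.000399). Over all transcripts the median difference of slopes was 0.14, and -0.07 with libraries centred. Centring subtracts the same value from all transcripts of a library, so it takes 0.21 from every difference of slopes, whatever the gene.

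**Figure D2:**
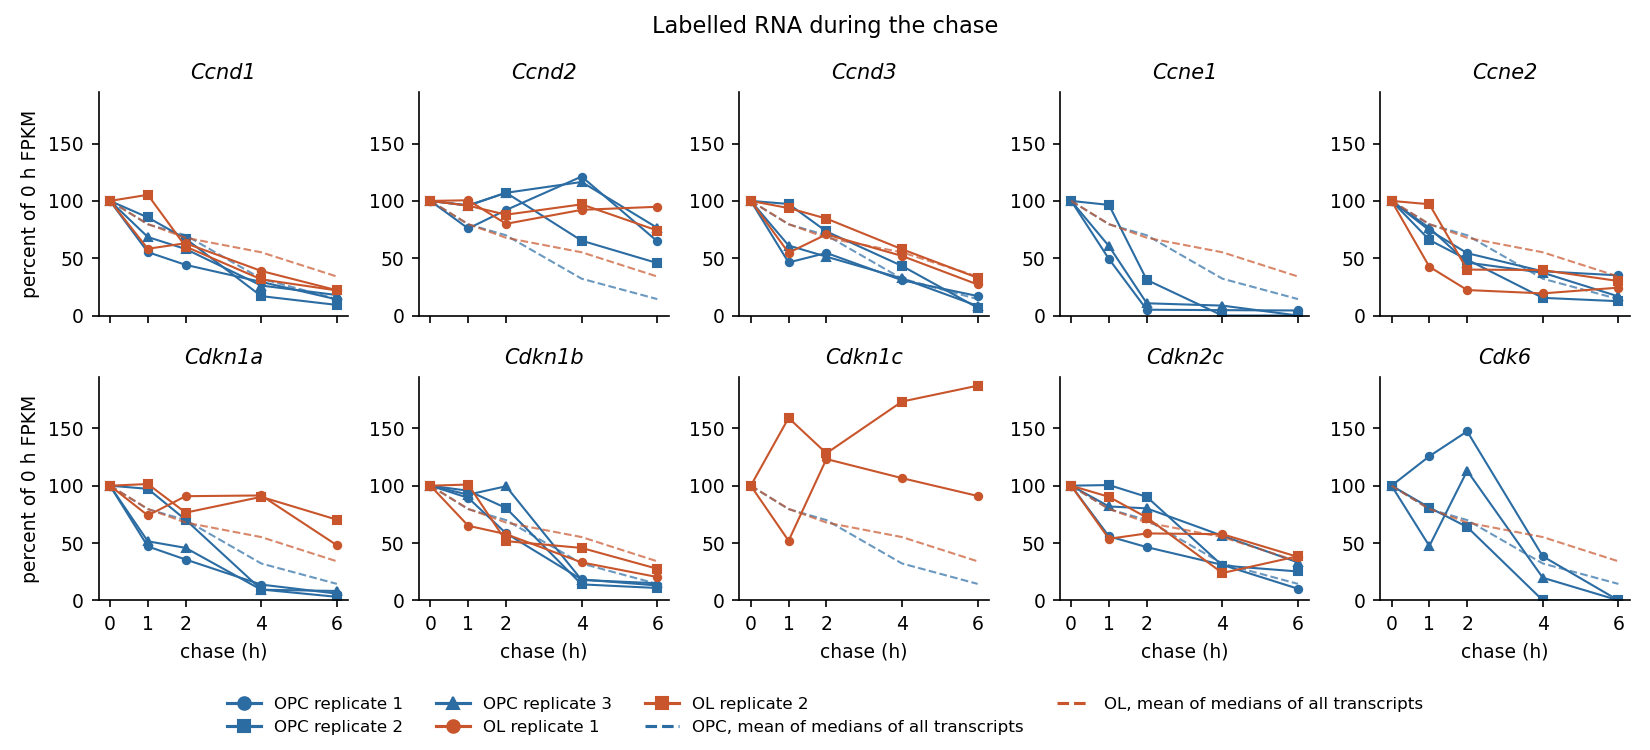
Labelled RNA as a percentage of the replicate's own 0 h FPKM (vertical axis) against hours of chase; solid lines are replicates of OPCs (blue) and OLs (orange) and dashed lines are the mean over replicates of the median of all listed transcripts. At 4 and 6 h Cdkn1a lies below the dashed line in all OPC replicates and above it in both OL replicates, and Ccnd2 lies above it in all 5.

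Across the members, 3 of the 7 in both tables had a shallower slope in OLs past the threshold, Cdkn1a, Ccnd3 and Cdkn1b, and 0 had a steeper one, where 32.1% of the 8177 transcripts tested were shallower. The median difference was 0.15 over the 7 members and 0.14 over all transcripts. For Ccnd3 the difference was 0.23 ± 0.07 (adjusted p 0.0203) and for Cdkn1b 0.21 ± 0.07 (adjusted p 0.0331). Neither passed with each library centred on its median (0.02, adjusted p 0.863, and -0.00209, adjusted p 0.985). Nor did they pass without OPC replicate 2 (0.19, adjusted p 0.0612, and 0.18, adjusted p 0.0836), OL replicate 1 (0.23, adjusted p 0.131, and 0.23, adjusted p 0.134) or OL replicate 2 (0.24, adjusted p 0.123, and 0.19, adjusted p 0.215). Ccnd3 was also lost without OPC replicate 3 (0.22, adjusted p 0.0514), and both without the 6 h libraries (0.16, adjusted p 0.217, and 0.29, adjusted p 0.0892). Cdkn1b was lost without the 1 h libraries as well (0.20, adjusted p 0.107). Over 11 alternatives Ccnd3 passed under 5 and Cdkn1b under 4. For Ccnd1, Ccnd2, Ccne2 and Cdkn2c the differences of 0.14, 0.06, 0.11 and 0.15 did not pass (adjusted p 0.0764 to 0.429).

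Ccnd2 kept more of its 0 h level at 6 h than the other D cyclins in all 5 replicates. In OPC replicate 1 it went from 157 to 119, 145, 191 and 102 FPKM at 1, 2, 4 and 6 h. In OPC replicates 2 and 3 it went from 214 to 206, 230, 140 and 98.1 FPKM and from 172 to 165, 184, 201 and 132 FPKM. The OPC replicates thus stood at 45.8% to 76.5% of their 0 h level after 6 h, 4.17 to 4.51 times the median transcript of the library.

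In OLs Ccnd2 went from 10.1 to 10.1, 8.06, 9.29 and 9.56 FPKM in replicate 1 and from 18.6 to 17.8, 16.3, 18.0 and 13.8 FPKM in replicate 2. At 6 h these were 94.9% and 74.2% of 0 h, 3.01 and 2.03 times the median. The slope was -0.10 ± 0.04 in OPCs (adjusted p 0.0532) and -0.03 ± 0.04 in OLs (adjusted p 0.490), neither past the threshold. Without OPC replicate 1 the OPC slope passed (-0.12, adjusted p 0.0479), while without OPC replicate 2 it was -0.04 (adjusted p 0.485). Relative to the library medians Ccnd2 rose, with centred slopes of 0.34 (adjusted p 5.59e-07) in OPCs and 0.20 (adjusted p 0.000914) in OLs, and on that scale its difference between cell types turned to -0.15 (adjusted p 0.0376).

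Ccnd1 and Ccnd3 fell in both cell types. After 6 h Ccnd1 was at 13.7% ± 4.3 (SD, n = 3) of 0 h in OPCs, and OLs held 22.0% ± 0.11 (SD, n = 2), with slopes of -0.48 ± 0.04 (adjusted p 6.69e-08) and -0.34 ± 0.04 (adjusted p 1.04e-05). Ccnd3 was at 10.7% ± 5.5 in OPCs and 30.01% ± 4.1 in OLs, with slopes of -0.49 ± 0.05 (adjusted p 3.9e-07) and -0.26 ± 0.04 (adjusted p 0.000128). With libraries centred, neither gene's slope in OPCs passed the threshold (-0.04 and -0.05), and in OLs that of Ccnd1 did (-0.11, adjusted p 0.0188). A centred slope is relative to the course of the library median. Over all transcripts the median centred slope was 0.06 in OPCs and 0.03 in OLs. No gene was tested against the slope of the median transcript.

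The makeup of labelled D cyclin RNA shifted within each replicate over the chase. In OPC replicates 1 to 3 the Ccnd2 share went from 33.5% to 68.3%, from 53.8% to 86.3% and from 42.2% to 78.9% between 0 and 6 h. In OLs it went from 9.52% to 28.2% and from 18.7% to 36.5%. The Ccnd2 share was higher at 6 h in 5 of 5 replicates, and after 6 h it was the main D cyclin in every OPC replicate while Ccnd3 was still the main one in both OL replicates (51.5% and 49.4%). The ratio of Cdkn1a to summed D cyclins moved in opposite directions, to 0.0781, 0.0272 and 0.0721 in OPCs and to 2.43 and 3.47 in OLs.

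**Figure D3:**
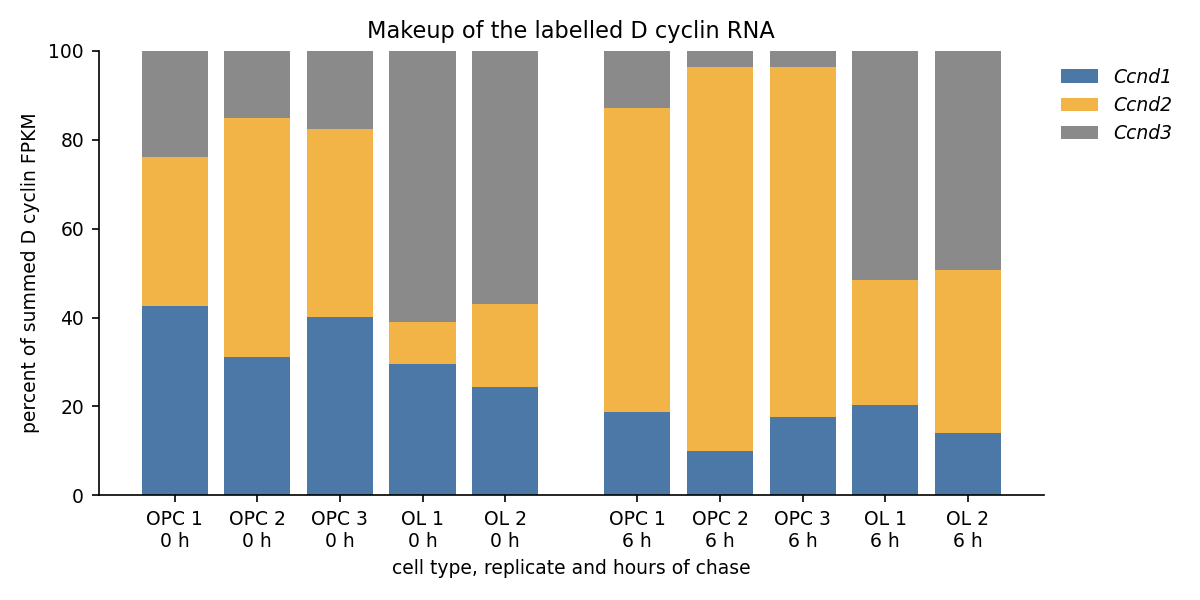
Percentage of the summed FPKM of Ccnd1, Ccnd2 and Ccnd3 (vertical axis) held by each gene, for each replicate at 0 h (left) and 6 h (right) of chase. Ccnd2 takes 68.3% to 86.3% in OPCs at 6 h, and Ccnd3 takes the largest share in both OL replicates at both times.

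Ccne1 had the steepest slope of the OPC members, although its difference from Cdkn1a was not tested. It went from 32.5 to 16.0, 1.65, 1.53 and 1.43 FPKM in OPC replicate 1. It went from 30.5 to 29.4 and 9.47 FPKM in replicate 2, which lists it at 0 at 4 and 6 h, and from 31.7 to 19.2, 3.39 and 2.75 FPKM in replicate 3, which lists it at 0 at 6 h. Between 1 and 2 h it dropped from 49.3%, 96.5% and 60.5% of 0 h to 5.09%, 31.1% and 10.7%. Its slope was -0.80 ± 0.10 (adjusted p 9.4e-07), and -0.36 (adjusted p 0.00143) with libraries centred. With 0.1 FPKM in place of 1 added before the logarithm, the slope was -1.23 (adjusted p 2.22e-05).

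The other E cyclin, Ccne2, also fell in OPCs, and the Ccne1 to Ccne2 ratio was smaller at 2 h than at 0 h. It was at 35.1%, 12.5% and 16.7% of 0 h after 6 h in OPCs and at 24.3% and 30.1% in OLs, with slopes of -0.36 ± 0.05 (adjusted p 1.84e-06) and -0.25 ± 0.06 (adjusted p 0.00191). The ratio of Ccne1 to Ccne2 in OPC replicates 1 to 3 was 2.46, 0.912 and 1.43 at 0 h, 1.63, 1.34 and 1.13 at 1 h, and 0.230, 0.581 and 0.331 at 2 h. It was higher at 1 h than at 0 h in replicate 2, and lower at 2 h than at 0 h in 3 of 3 replicates. Cdk6 was at 147%, 64.0% and 113% of its 0 h level at 2 h and was listed at 0 at 6 h in all 3 replicates, with a slope of -0.25 ± 0.05 (adjusted p 6.44e-05) that was -0.73 with a pseudocount of 0.1 FPKM in place of 1 and turned to 0.19 (adjusted p 0.000876) with libraries centred. At 1 to 2 FPKM its course cannot be followed further.

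Cdkn1b fell past the threshold in both cell types. OPC replicates 1 to 3 stood at 89.4%, 95.6% and 92.2% at 1 h, at 58.5%, 80.5% and 99.5% at 2 h, and at 18.2%, 13.9% and 17.8% at 4 h. The medians of all transcripts in these libraries were 54.7%, 83.3% and 72.0% at 2 h and 39.0%, 20.4% and 37.0% at 4 h. OL replicates stood at 65.0% and 101% at 1 h, 57.8% and 51.6% at 2 h, and 33.1% and 45.7% at 4 h. At 6 h the OPC replicates were between 10.8% and 14.9% and the OL replicates at 20.3% and 27.5%. Slopes were -0.54 ± 0.05 (adjusted p 1.65e-07) in OPCs and -0.33 ± 0.04 (adjusted p 1.03e-05) in OLs. The ratio of Cdkn1a to Cdkn1b within a library went from 4.70, 1.44 and 2.87 at 0 h to 2.13, 0.409 and 1.57 at 6 h in OPCs, and from 2.59 and 2.69 to 6.11 and 6.88 in OLs.

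Cdkn2c and Cdkn1c complete the inhibitors. Cdkn2c was at 10.1%, 25.2% and 33.0% of 0 h after 6 h in OPCs and at 37.9% and 38.5% in OLs, with slopes of -0.37 ± 0.05 (adjusted p 1.22e-06) and -0.22 ± 0.06 (adjusted p 0.00255). The OL slope was lost without OL replicate 2 (-0.16, adjusted p 0.0915), and neither slope passed the threshold with libraries centred (0.07 and 0.02). Cdkn1c in OLs went from 14.2 to 7.36, 17.4, 15.1 and 12.9 FPKM in replicate 1 and from 3.98 to 6.33, 5.10, 6.89 and 7.44 FPKM in replicate 2. Its slope of 0.07 ± 0.05 did not pass (adjusted p 0.222), and it rose relative to the library medians (0.31, adjusted p 7.74e-05).

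Counted over all members, 8 of 9 fell past the threshold in OPCs and 5 of 8 in OLs. Of all transcripts 81.7% fell in OPCs and 68.4% in OLs. The exceptions were Ccnd2 in OPCs and Ccnd2, Cdkn1a and Cdkn1c in OLs. The median slope of all transcripts was -0.38 in OPCs and -0.20 in OLs.

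**Figure D4:**
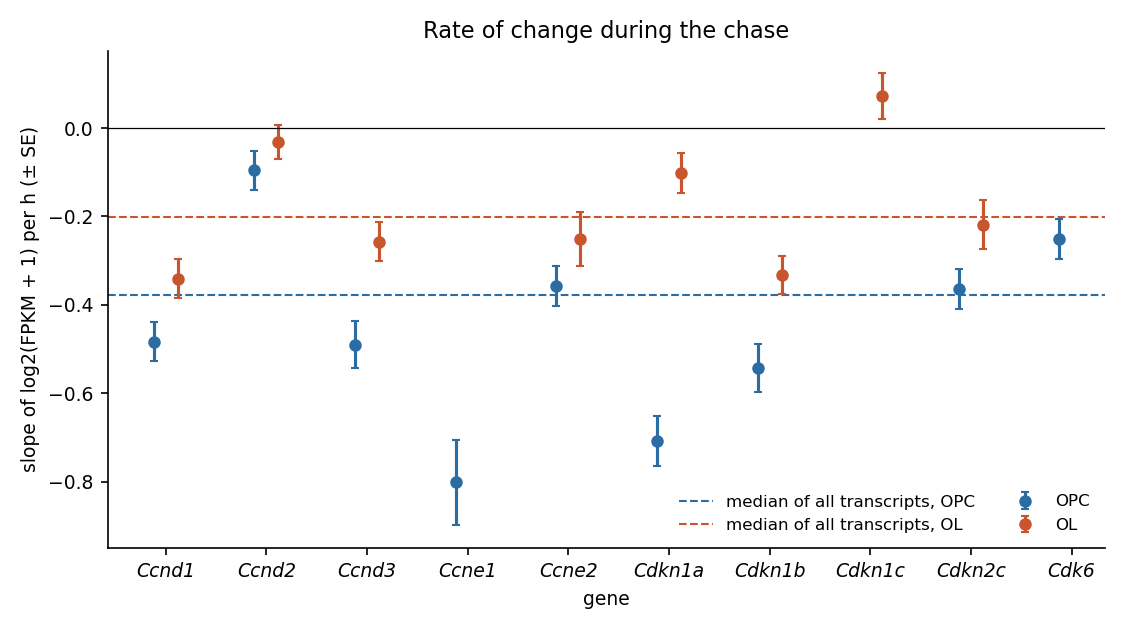
Slope of log2(FPKM + 1) per hour of chase (vertical axis) for each gene in OPCs (blue) and OLs (orange), with SE bars from limma; dashed lines are the medians over all listed transcripts, -0.38 in OPCs and -0.20 in OLs. The gap between the cell types is widest for Cdkn1a, at 0.61.

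The deposited half-lives gave the same data as 1 number per replicate, fitted by the authors as a single exponential with a ceiling of 6 h. Cdkn1a had half-lives of 1.34, 1.96 and 1.17 h in OPC replicates 1 to 3 and was at the ceiling in both OL replicates. The difference of 2.05 ± 0.27 on the log2 scale missed the threshold over all transcripts (adjusted p 0.0582). With the replicate number as a block it was 1.89 (adjusted p 0.226). It passed in hours (adjusted p 0.0117) and without OPC replicate 2 (2.26, adjusted p 0.0378), 2 of 9 alternatives. No member passed in this test, 0 of 7, where 3.54% of 8112 transcripts were called by limma and 1866 had an unadjusted p under 0.05. Among the members Cdkn1a, Ccnd1, Cdkn1b and Ccnd3 had unadjusted p of 0.00274, 0.0318, 0.0312 and 0.0432.

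Replicates did not overlap for 4 of the 7 members, all longer in OLs, and 35.9% of all transcripts were longer in OLs without overlap. Ccnd1 had 2.12, 1.96 and 2.41 h in OPCs and 2.94 and 2.73 h in OLs. Cdkn1b had 2.04, 1.96 and 2.18 h in OPCs and 2.53 and 3.23 h in OLs. Ccnd3 had 2.35, 3.31 and 2.08 h in OPCs and 4.01 and 5.07 h in OLs. With each replicate centred on its median the sign turned for Ccnd1 (-0.51), Cdkn1b (-0.43) and Ccnd3 (-0.07), but not for Cdkn1a (1.14, adjusted p 0.0570). As ranks, 21.8%, 34.6% and 9.42% of half-lives lay below Cdkn1a in OPC replicates 1 to 3 (ties within 0.001 h counted at their mid-rank) and 80.1% and 81.9% in OLs, where the ceiling itself holds that rank.

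Ccnd2 was at the ceiling in all 5 replicates, together with 24.3% to 39.7% of half-lives, so its half-lives hold no comparison. Ccne1 had the shortest half-lives of the members in OPCs, 0.907, 1.19 and 1.13 h, with 8.16% to 9.28% of transcripts shorter in the same replicate. Ccne2 had 2.91, 1.66 and 2.32 h in OPCs and 0.922 and 3.00 h in OLs, so the OL values spanned all OPC values, and the sign of its difference turned without OL replicate 1 (0.42). Cdkn2c had 1.81, 3.01 and 4.83 h in OPCs and 4.28 and 4.26 h in OLs. Cdk6 had 2.90, 1.96 and 1.71 h in OPCs, and Cdkn1c was at the ceiling in both OL replicates.

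A single value recurs in OPC replicate 2: Ccnd1, Cdkn1a, Cdkn1b and Cdk6 all have a half-life of 1.96 h there. It was shared, within 0.001 h, by 2174 of 8491 transcripts of that replicate (25.6%), by 7.45% in OPC replicate 3, 2.18% in OPC replicate 1, and 0.474% and 1.38% in OLs. For sampling at 1, 2, 4 and 6 h, a fit by least absolute deviations has an optimum at exactly this value whenever the 1 and 2 h points lie above the curve and the 4 and 6 h points below it, however far they lie. In OPC replicate 2 these 4 half-lives therefore carry the order of the points and not their distance. A refit by least squares gave 2.29 h for Ccnd1, 2.25 h for Cdkn1a and 2.61 h for Cdkn1b in that replicate, and the log2 difference of Cdkn1a was then 1.96 (adjusted p 0.131). With these half-lives 3 of the 7 members, Ccnd1, Ccnd3 and Cdkn1a, were longer in OLs without overlap, beside 32% of all transcripts. Cdkn1b was not, at 2.27, 2.61 and 3.10 h in OPCs and 2.39 and 3.31 h in OLs, and its difference fell from 0.47 to 0.09 (adjusted p 0.960).

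**Figure D5:**
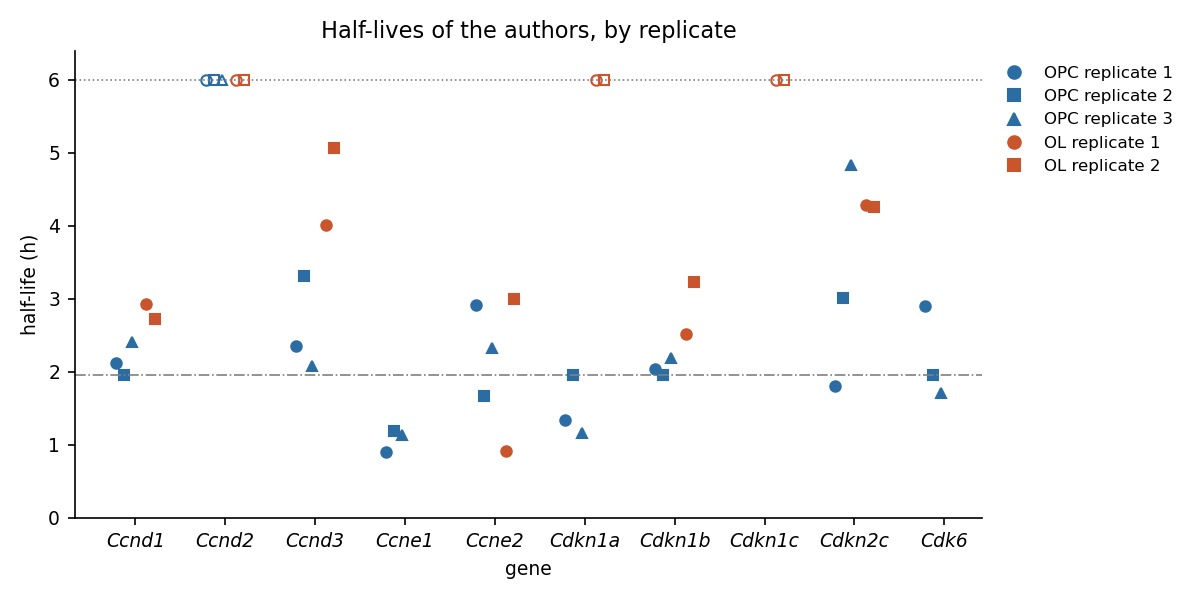
Half-life in hours (vertical axis) as fitted by the authors, 1 symbol per replicate of OPCs (blue) and OLs (orange); open symbols on the dotted line are at the 6 h ceiling and the dash-dotted line is the recurring value of 1.96 h. Cdkn1a lies between 1.17 and 1.96 h in OPCs and at the ceiling in both OL replicates.

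Other genes of the G1 to S transition were taken from lists of kinases, kinase activators and binding partners, of pocket proteins and their transcription factors, and of ubiquitin ligases that act on these proteins. Of 10 partner genes tested at 0 h, 5 were lower in OLs and 0 higher, beside 15.8% and 13.8% of all transcripts. These were Cks2 (-2.80 ± 0.49, adjusted p 0.00475), Ccna2, the S phase cyclin (-2.69 ± 0.30, adjusted p 0.000646), Cks1b (-2.42 ± 0.26, adjusted p 0.000548), Cdk2, the kinase of the E cyclins (-1.55 ± 0.23, adjusted p 0.00225), and Cdk4, the kinase of the D cyclins (-0.93 ± 0.22, adjusted p 0.0168). Cdk4 stood at 377, 307 and 327 FPKM in OPCs and at 193 and 160 FPKM in OLs, above every D cyclin in each 0 h library.

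Of 9 pocket protein and transcription factor genes tested at 0 h, 2 were higher and 3 lower in OLs, beside 13.8% and 15.8% of all transcripts. Both higher ones encode pocket proteins: Rb1, the retinoblastoma protein (1.68 ± 0.43, adjusted p 0.0228), and its relative Rbl2 (1.13 ± 0.31, adjusted p 0.0277). Tfdp1 (-0.86 ± 0.22, adjusted p 0.0221), E2f6 (-0.81 ± 0.23, adjusted p 0.0342) and E2f3 (-0.66 ± 0.20, adjusted p 0.0419), which encode transcription factors, were lower. Of 14 ligase genes 2 were lower, a share near that of all transcripts (15.8%): Skp2, which directs p27 to degradation (-1.56 ± 0.24, adjusted p 0.00273), and Fzr1 (-0.88 ± 0.24, adjusted p 0.0268).

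In the difference of slopes 32.1% of all transcripts were shallower in OLs. Of 10 partner genes it was 1, Cdk2 (0.34 ± 0.08, adjusted p 0.00200). Among the pocket protein and transcription factor genes it was 4 of 9: E2f4 (0.45 ± 0.09), E2f5 (0.43 ± 0.10), E2f6 (0.30 ± 0.08) and Rbl2 (0.20 ± 0.08), with adjusted p of 0.000950, 0.00330, 0.00636 and 0.0464. For the ligase genes it was 5 of 14, near the share of all transcripts: Fzr1 (0.44 ± 0.12), Ambra1, the ligase receptor of D cyclins (0.43 ± 0.09), Ubac1 (0.34 ± 0.13), Cul1 (0.33 ± 0.10) and Cul3 (0.23 ± 0.09), with adjusted p of 0.00736, 0.00128, 0.0413, 0.0193 and 0.0401. No gene of the 3 lists was steeper past the threshold, and each difference here is smaller than the 0.61 of Cdkn1a. These differences are uncentred. Centring takes the same 0.21 from every difference of slopes, more than the 0.20 of Rbl2 and nearly all of the 0.23 of Cul3. In half-life 1 of 33 tested genes of the 3 lists passed (3.03%), near the 3.54% of all transcripts: Ubac1, longer in OLs (1.40 ± 0.16, adjusted p 0.0486). It had 1.86, 1.96 and 1.86 h in OPCs and 4.27 and 5.82 h in OLs. Of these, 1.96 h is the recurring value above, and Cul1 and Rbl2 also had 1.86 h in OPC replicate 1. How far its small SE rests on such shared values was not tested.

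For each member in both tables the transcript with the most similar course over the 25 libraries was sought by Pearson's r of log2(FPKM + 1), as a description, since the points share cell types, chase times and library factors. It was Cyth2 for Cdkn1a (r = 0.982), Sept9 for Ccnd2 (0.984), Smarcad1 for Cdkn1b (0.979), Tmpo for Cdkn2c (0.968), Mlec for Ccnd1 (0.964), Ints3 for Ccnd3 (0.964) and Suv39h2 for Ccne2 (0.959).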

How the data were processed

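After adapter clipping (fastx_clipper), the authors mapped reads to GRCm38 by HISAT2 2.1.0 and tabulated FPKM for canonical coding transcripts (GENCODE vM9) with StringTie 1.3.5 and ballgown. The deposited FPKM at 0 h are unscaled and later FPKM are scaled by the authors to LYSa and luciferase spike-ins. Transcripts under 1 FPKM at 0 h had been left out, and no listed transcript is at 0 at 1 or 2 h. The authors fitted each half-life, in hours, as a single exponential by least absolute deviations; values just above 6 h were set to 6 h here.

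Samples were grouped by their labels. Levels at 0 h, log2 half-lives and slopes over chase time were compared on log2(FPKM + 1) or log2 hours with limma 3.58.1 in R 4.3.3, with Benjamini-Hochberg adjustment over all transcripts. Slope fits had the replicate as a term and a single slope per cell type, so their p does not measure the spread of slopes between replicates. The study calls the replicates biological. No pair of libraries shared more than 0.0117% of values. The fits were tested on simulated data. Members and lists were chosen by function, but with earlier results of these data known, so the choice was not blind to them. All members are named. Of the 3 pathway lists, up to 6 genes with the largest change past an adjusted p of 0.05 are named in each comparison, markers are given in ranges and counts, with those named chosen after their values were seen, and 1 transcript most like each member is given.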

Additional observations from a re-analysis of the deposited data

Results flagged for a closer look

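The change over the chase differed between the cell types, by a test of the difference of slopes itself, for 3 of 7 members, where 32.1% of the 8177 transcripts tested passed the same test with a shallower slope in OLs. The slope in OLs minus that in OPCs was 0.61 per hour on the log2(FPKM + 1) scale for Cdkn1a, 0.23 for Ccnd3 and 0.21 for Cdkn1b, and OLs had the shallower slope in each. Over all transcripts the median of this difference was 0.14, and with libraries centred on their medians only the difference of Cdkn1a, among these 3, remained past the threshold. The p of this test rests on the scatter of libraries around a shared slope per cell type, not on the spread of slopes between replicates. With 3 and 2 replicates, no group was large enough to test for a single outlying sample.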

How the results depend on the processing

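Of 334 values of the members under alternatives, 291 kept their direction and side of the threshold, 19 lost a call, 6 gained one and 18 changed sign. The 291 include all 9 for the half-life of Ccnd2, whose main difference of 0 at the ceiling has no direction. With replicates centred that difference was -0.90, not past the threshold. Signs turned mainly with libraries or replicates centred on their medians. For decline in OPCs these were Ccnd2 (0.34), Ccne2 (0.08), Cdkn2c (0.07) and Cdk6 (0.19), and in OLs Ccnd2 (0.20), Cdkn1a (0.13) and Cdkn2c (0.02). For the difference of slopes they were Ccnd1 (-0.07), Ccnd2 (-0.15), Ccne2 (-0.11), Cdkn1b (-0.00209) and Cdkn2c (-0.07), and for half-lives Ccnd1 (-0.51), Ccnd3 (-0.07), Cdkn1b (-0.43) and Cdkn2c (-0.38). The difference of slopes of Ccnd2 was -0.03 without the 6 h libraries. With 1 replicate left out the half-life difference of Ccne2 ran from -1.28 to 0.42.

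Counts of transcripts called moved more. For 0 h levels (2421) they ran from 896 to 2605 with 1 replicate left out. For half-lives (287) they were 600 in hours, 149 without transcripts at the ceiling, 1 with replicates centred, 24 after the least squares refit (chosen after seeing the data) and 167 to 236 with 1 replicate left out. For decline in OPCs (7334) they were 4572 for transcripts above 0 in every library and 4578 with libraries centred, and in OLs (6814) 4391 with libraries centred. For the difference of slopes (2655) they were 1528 above 0 in every library, 1622 without the 6 h libraries, 1496 without the 1 h libraries (also chosen after seeing the data) and 746 to 2722 with 1 replicate left out. Centring also turned the split of the difference of slopes, from 2623 shallower and 32 steeper in OLs to 341 and 1837. The cause was not tested.

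With the replicate number as a block, 0 half-lives were called by limma (1554 at an unadjusted p under 0.05) and 1932 transcripts at 0 h. The study states that the OLs match a pair of the OPC replicates, but neither it nor the labels say which numbers match, and deviations of equal numbers at 0 h correlated at 0.0589 and 0.0102. The block therefore rests on the numbers alone, and a fit by the true pairs was not possible. Without the replicate block the slope difference of Cdkn1b was lost (0.21, adjusted p 0.0593). Where 1 OL replicate was left out, the lone one was assumed to vary like the OPC replicates. Depth is unknown, and values listed at 0 (Ccne1, Cdk6) may be reads too few to register.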
